A study of Mus musculus and synthetic construct with 21 samples.

Results

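The elements described here are motif arrays: designed enhancers in which copies of 1 or 2 transcription factor motifs were combined with a fixed mouse sequence background, here the background named after a site on chromosome 9. They were taken by name, as the elements of the array pool that carry the chromosome 9 site, which gave 1081 of the 3243 elements of the pool (pool 7 of the study). Of these, 1080 were arrays and 1 was the single element, the same background with no array in its name. The other elements of the pool repeated the same design on a chromosome 13 and a chromosome 15 site, with 1081 elements each.

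The study asked how PPARγ motifs, their surroundings and co-regulatory motifs set enhancer activity, by massively parallel reporter assays (MPRA), in which each element drives a transcript that carries its barcodes. The host cells were 3T3-L1, an established mouse pre-adipocyte line that turns into fat cells after hormonal induction, here by dexamethasone at 1 µM, IBMX at 0.5 mM and insulin at 1.7 µM over 48 h. The pool was read as 1 RNA library, extracted 16 hours after transfection, and 1 library of the transfected plasmid DNA. Both libraries carried all 3243 elements, no treated and untreated groups were compared, and the stage of differentiation at transfection is not given in the sources used here.

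PPARγ, a nuclear receptor, is the main regulator of fat cell formation. It binds DNA together with RXR at the DR1 motif, a pair of AGGTCA-like hexamers separated by a single base. AP-1 is a family of dimers of FOS-type and JUN-type leucine zipper proteins that bind a short palindrome and activate many enhancers in response to growth and stress signals. An array tests whether a motif, taken out of its native surroundings, is enough to raise transcription from a given background.

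Each background was named by the 16 bases of its native DR1-like site, and these names were the source of the sequences printed here. The sites are shown 5′ to 3′ on the named strand to compare how near each comes to DR1, with capitals for the hexamers of the best match to the DR1 consensus, AGGTCA on both sides of a single free base, and with mm9 coordinates counted from 1. Gene annotation of mm9 was not used here.
Chromosome 9 (chr9:66727486-66727501, plus strand): agtGGGGCAgAGGGCA
Chromosome 13 (chr13:46069371-46069386, plus strand): tgaAGGTCAgAGTTTA
Chromosome 15 (chr15:67824069-67824084, minus strand): agtAGGACAgGGGTTA
The chromosome 9 site differed from the DR1 consensus at 3 bases, 2 in the first hexamer and 1 in the second. The chromosome 13 site differed at 2 bases, both in the second hexamer. The chromosome 15 site differed at 3 bases, 1 in the first hexamer and 2 in the second. The sequences of the inserted motifs are not printed, since the files used here give the arrays by motif name only.

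The array names hold 2 motif names, a number read here as the number of motif copies (2, 4 or 6) and a code for 1 of 3 arrangements, whose layout is not given in the sources used here. All 15 motifs were arrayed alone and in all 105 pairs, with 9 arrays for each content, which gave 135 single-motif and 945 mixed arrays. Activity is given as a level, log2 of RNA over plasmid counts with 1 count added to each and both scaled to their library totals. A difference is the level of an array minus that of the single element. The single element is named by its native DR1-like site, so it may not be a reference free of motifs. Whether the arrays keep that site is not given in the sources used here. There was 1 library of each kind, so errors given as SD are spreads over arrays, which share both libraries and the background. Intervals cover counting error only, and no test between conditions could be made.

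The RNA library held 9806531 counts and the plasmid library 10179019 counts. Chromosome 9 arrays had between 31 and 11018 plasmid counts, with a median of 3993.5, and a median of 142 barcodes. The 1 array below 50 plasmid counts, 6 copies of ap2 in arrangement 3, was left out, and 1079 arrays were used.

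The chromosome 9 single element was read with 1314 barcodes, 19901 RNA counts and 50127 plasmid counts, which gave a level of -1.28 (95% exact binomial interval -1.30 to -1.26). The chromosome 13 single element stood at -0.97 and the chromosome 15 single element at -2.59. The chromosome 9 single element was thus 0.31 below that of chromosome 13 and 1.31 above that of chromosome 15 on the log2 scale. These differences compare single elements in the same libraries and have no replicate check. Every difference below rests on the level of that 1 element.

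Most arrays stood above the single element, and the spread between motifs was wide. The 1079 arrays ran from -9.55 to 3.47, with a median level of -0.59 and a mean of -0.75 ± 1.73 (SD over arrays). The median difference from the single element was 0.69, and 779 arrays stood above it. Of the arrays, 418 (38.7%) were 2-fold or more higher than the single element and 111 (10.3%) were 2-fold or more lower. Over the arrays of all 3 backgrounds, each against its own single element, the shares were 39.3% and 16.8%. Single-motif arrays were 2-fold or more higher in 47 of 134 cases, and mixed arrays in 371 of 945.

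The number of plasmid counts moved with the low levels. Among the 31 arrays with fewer than 500 plasmid counts, 23 were 2-fold or more below the single element and 19 had no RNA count. Among the 538 arrays with 4000 or more plasmid counts, 19 were 2-fold or more lower and none had 0 RNA counts. The part of plasmid depth in the low levels was not tested. With 2000 or more plasmid counts, 928 arrays remained, of which 40.5% were 2-fold or more higher and 5.60% were 2-fold or more lower.

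Arrays of ppar, the motif of the PPARγ and RXR dimer, had the highest mean of the 15 single-motif sets. With 2 copies the 3 arrangements read -0.01, -0.13 and 0.31. With 4 copies they read 1.10, 0.99 and 1.47, and with 6 copies 1.25, 1.14 and 1.78. All 9 stood 2-fold or more above the single element, and no 2-copy array reached the lowest 4-copy or 6-copy array. Their mean was 0.88 ± 0.67 (SD, n = 9 arrays), a mean difference of 2.16. Most of the difference lay between 2 and 4 copies, at 1.13 ± 0.04 (SD, n = 3 arrangements), and the step from 4 to 6 copies was 0.20 ± 0.09.

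The bach1, jun, fra1 and fos motifs followed and are called the AP-1 group below. JUN, FOS and FRA1 are subunits of AP-1, and BACH1 is a related leucine zipper protein that binds an AP-1-like core with small MAF partners and is known as a repressor of oxidative stress genes. In every motif of the group, 6 of 9 arrays stood 2-fold or more above the single element and none stood 2-fold or more below it.

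The bach1 arrays averaged 0.63 ± 1.16 (SD, n = 9). In arrangements 1, 2 and 3 they read -0.30, -0.66 and -1.04 with 2 copies, 1.18, 0.52 and 1.35 with 4 copies, and 1.84, 0.36 and 2.37 with 6 copies. The 0.36 was the only 6-copy value of the group under 1, and that array had fewer plasmid counts (1216) than any other bach1 array.

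The jun arrays averaged 0.60 ± 1.32 (SD, n = 9). They read -1.36, -0.74 and -0.73 with 2 copies, 0.63, 0.76 and 0.72 with 4 copies, and 2.49, 1.64 and 1.95 with 6 copies. The 3 copy numbers did not overlap, and the 4-copy arrays lay within a narrow range.

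The fra1 arrays averaged 0.48 ± 1.5 (SD, n = 9), from -0.48, -1.27 and -2.10 with 2 copies through 1.51, 1.04 and 0.27 with 4 copies to 1.22, 2.50 and 1.62 with 6 copies. Here the 4-copy and 6-copy ranges overlapped. The fos arrays averaged 0.39 ± 1.70 (SD, n = 9), from -1.79, -0.73 and -1.84 with 2 copies through 0.15, 0.12 and 0.45 with 4 copies to 2.73, 2.24 and 2.18 with 6 copies. The fos ranges did not overlap between copy numbers. Of the ppar and AP-1 group motifs, fos had the largest difference between 6 and 2 copies, 3.84 ± 0.79 (SD, n = 3), and ppar the smallest, 1.33 ± 0.12.

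The order of ppar and the AP-1 group turned over with the copy number. At 2 copies the mean was 0.06 for ppar (n = 3) and -1.09 for the AP-1 group (n = 12), and all 12 AP-1 group arrays lay below all 3 ppar arrays. At 4 copies the means were 1.19 and 0.73, with 8 AP-1 group arrays below all ppar arrays and 1 above them. At 6 copies they were 1.39 and 1.93, with 8 AP-1 group arrays above all ppar arrays and 1 below. The chromosome 13 arrays gave the same order at each copy number, with ppar minus AP-1 group means of 0.81, 0.59 and -0.63. In the chromosome 15 background the differences were 0.91, -3.58 and 0.25. The ppar mean at 4 copies there included 1 array with no RNA count, entered at -8.18. The highest ppar array of 4 copies there read 0.60, and 6 of the 12 AP-1 group arrays stood above it. Whether the turn differs between backgrounds was not tested.

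No other motif had a mean above -0.68 over its single-motif arrays. The LXR motif lxr, bound by the oxysterol receptor with RXR, had a mean of -0.68 ± 0.42 (SD, n = 9), the smallest spread of the 15 motifs, and 1 array 2-fold or more above the single element. With 2, 4 and 6 copies the lxr means were -0.72, -0.31 and -1.01, so the 6-copy mean was the lowest. The 6-copy array of arrangement 3, at -0.59, stood above all 2-copy lxr arrays. The atf3 motif, site of a stress-induced leucine zipper factor, averaged -0.84 ± 0.61 (SD, n = 9), with 2 arrays 2-fold or more higher. Its means by copy number were -1.46, -0.71 and -0.35.

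The e4bp4 and vbp motifs bind PAR-type leucine zipper factors and the related repressor E4BP4 (NFIL3), which share a recognition sequence. Their means were -0.96 ± 0.77 and -1.02 ± 0.90 (SD, n = 9 each), and each had 2 arrays 2-fold or more above the single element. The cebp motif, bound by the C/EBP factors that act beside PPARγ in adipocytes, averaged -1.69 ± 0.87 (SD, n = 9), below the single element. No cebp array was 2-fold or more higher, and 2 were 2-fold or more lower, both with 6 copies, at -2.67 and -3.20. The cebp arrays with 6 copies had 981, 802 and 1409 plasmid counts, fewer than the other cebp arrays. The mean difference for cebp was -0.41, against -0.06 without 6-copy arrays. A minimum of 2000 plasmid counts left out the same arrays, so copy number and plasmid depth cannot be told apart here. The forkhead motif foxo4 averaged -1.38 ± 0.74 (SD, n = 9), with none higher and 2 lower by 2-fold or more.

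The myc motif, an E-box bound by MYC and MAX, was split: 5 arrays were 2-fold or more above the single element and 2 were 2-fold or more below it. In arrangements 1, 2 and 3 it read -0.21, -3.59 and -0.90 with 2 copies, 0.82, 0.49 and -8.48 with 4 copies, and 0.18, 0.31 and -0.68 with 6 copies. The -8.48 came from 1 RNA count against 738 plasmid counts. With it, the mean was -1.34 ± 2.98 (SD, n = 9), while the median was -0.21, the sixth highest of the motifs.

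The ap2, foxd1 and myb arrays had the lowest means, and 7 of these arrays had no RNA count. Means that include such arrays depend on the count added, so they are also given with those arrays at 3 RNA counts. AP-2 factors activate genes of ectoderm and neural crest, FOXD1 is a forkhead factor of embryonic stroma, and MYB is best known in blood progenitors.

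The ap2 arrays read -2.90, -0.84 and -1.18 with 2 copies and -1.37, 0.05 and -0.50 with 4 copies. Both 6-copy arrays used had 0 RNA counts, against 231 and 398 plasmid counts. Bounded at 3 RNA counts, as all such arrays below, they were at least 30.6-fold and at least 52.7-fold below the single element. The mean was -2.89 ± 3.39 (SD, n = 8), or -2.49 with those arrays at 3 counts. Over the 6 arrays with 500 or more plasmid counts, which had 2 or 4 copies, the mean difference turned to 0.16.

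The foxd1 arrays read -1.92, -1.74 and -1.53 with 2 copies and -5.87, -0.66 and -2.58 with 4 copies. With 6 copies, arrangement 2 read -1.18, and arrangements 1 and 3 had 0 RNA counts, which put them at least 33.7-fold and at least 18.0-fold below the single element. The mean was -3.39 ± 2.78 (SD, n = 9), or -3.03 with 0 set to 3 counts, and the median was -1.92. The mean difference was -2.11, against -0.93 over arrays with 500 or more plasmid counts and -0.18 over arrays with 2000 or more. Both limited values were short of 2-fold. The arrays with 2000 or more were those of 2 copies and the 4-copy array of arrangement 2. Copy number and plasmid depth cannot be told apart there.

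The myb arrays were low in plasmid counts as well as in level, and 4 of 9 had fewer than 500 plasmid counts. They read -2.66, -2.18 and -0.97 with 2 copies, and -5.47 and -3.18 with 4 copies in arrangements 1 and 2. The 4-copy array of arrangement 3 and the 6-copy arrays of arrangements 1 and 2 had 0 RNA counts and were at least 32.7-fold, at least 24.5-fold and at least 8.60-fold below the single element. The 6-copy array of arrangement 3 went the other way, at 1.24, from 674 RNA and 296 plasmid counts. The mean was -3.84 ± 3.08 (SD, n = 9), or -3.31 with 0 set to 3 counts. The mean difference was -2.57, against -1.61 over arrays with 500 or more plasmid counts and -0.93 without arrays of 0 RNA counts. It was -0.66 over arrays with 2000 or more plasmid counts, which were the 2-copy arrays only. The last 2 of these values are short of 2-fold. Copy number and plasmid depth cannot be told apart in the last.

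In all, 21 of the arrays used had no RNA count. Of these, 17 had 6 copies, 4 had 4 copies and none had 2 copies, and their plasmid counts ran from 65 to 779. Each held at least 1 of myb (13 arrays), foxd1 (6), ap2 (5), cebp (3) or vbp (3). These motifs were named from the arrays themselves, so that each array held 1 of them followed from the choice. Each of the 15 motifs was in 126 mixed arrays. No single-motif array of cebp or vbp lacked RNA counts. The bounds ran from at least 8.60-fold to at least 103-fold below the single element. None held ppar, jun, fra1, atf3, e4bp4 or foxo4. They carried between 76 and 234 barcodes.

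Levels were higher with more copies most regularly in arrays that held a ppar or AP-1 group motif. Over all contents and arrangements, matched 4-copy arrays were 0.46 ± 1.67 above 2-copy arrays (SD, n = 360 matched sets, higher in 264), and 6-copy arrays were 0.27 ± 2.29 above 4-copy arrays (n = 359, higher in 227). Median levels were -1.06, -0.48 and 0.08 with 2, 4 and 6 copies, and 59, 151 and 208 arrays were 2-fold or more above the single element. In contents of ppar and AP-1 group motifs only, the steps were 1.57 ± 0.81 (higher in 44 of 45) and 1.03 ± 0.82 (higher in 40 of 45). In contents that joined a ppar or AP-1 group motif with another motif, they were 0.67 ± 1.37 (higher in 120 of 150) and 0.82 ± 1.69 (higher in 110 of 150). In contents with neither, they were -0.03 ± 1.90 (higher in 100 of 165, median 0.32) and -0.44 ± 2.78 (higher in 77 of 164, median -0.17).

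The level was higher at both steps in 39 of the 45 sets of ppar and AP-1 group motifs and lower at both steps in none. Among the 150 sets that joined such a motif with another, it was higher at both steps in 82 and lower at both in 2. Among the 164 sets with neither, it was higher at both steps in 33 and lower at both in 21. Single-motif AP-1 group arrays were higher at both steps in 10 of 12 sets, and over all motif contents 154 of 359 sets were.

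Arrangements differed little on average and much within a content. Arrangement 2 was 0.15 ± 1.48 above arrangement 1 (SD, n = 360, higher in 186), and arrangement 3 was -0.05 ± 1.92 relative to arrangement 1 (n = 359, higher in 172). The SD over the 3 arrangements of a content and copy number had a median of 0.617, and 0.544 over the 267 sets where all had 2000 or more plasmid counts. Differences between arrays of that size therefore lay within the spread over arrangements.

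Motifs kept much the same order inside mixed arrays. Over the 126 mixed arrays that held it, ppar averaged 0.22, jun -0.01, bach1 -0.08, fra1 -0.21, fos -0.31 and lxr -0.39. The others were e4bp4 at -0.54, atf3 at -0.68, myc at -0.81, vbp and foxo4 at -0.90 each, ap2 at -1.34, cebp at -1.37, foxd1 at -1.5 and myb at -1.88. Neighbours in this order lay within the SD over arrays, which was 0.92 for ppar, 1.24 for jun and 2.39 for myb. Means in mixed and in single-motif arrays had r = 0.965 and rho = 0.986 over the 15 motifs, as a description of points that share both libraries. For medians, these were r = 0.896 and rho = 0.886. Of the ppar mixed arrays, 92 of 126 were 2-fold or more above the single element and 1 was 2-fold or more below, and of the myb mixed arrays 23 were higher and 33 lower.

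The highest pairs joined ppar and AP-1 group motifs. The highest mean was that of ppar with jun, at 0.99 ± 0.78 (SD, n = 9). Its arrays read -0.18, 0.38 and 0.02 with 2 copies, 1.56, 1.45 and 0.62 with 4 copies, and 1.63, 1.58 and 1.85 with 6 copies. All 9 stood 2-fold or more above the single element.

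Next was bach1 with jun, at 0.98 ± 1.24 (SD, n = 9). It read 0.03, -1.11 and -0.15 with 2 copies, 1.25, 0.78 and 1.05 with 4 copies, and 2.34, 1.90 and 2.68 with 6 copies. The ppar pair was the higher of these pairs in each 2-copy arrangement except arrangement 1, and the AP-1 group pair was the higher in each 6-copy arrangement.

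The means were 0.92 ± 0.91 for ppar with bach1, 0.67 ± 1.28 for fos with jun, 0.62 ± 1.61 for bach1 with fra1 and 0.61 ± 1.55 for fos with bach1 (SD, n = 9 each). They were 0.57 ± 1.05 for ppar with fos, 0.53 ± 1.15 for ppar with fra1, 0.46 ± 1.68 for jun with fra1 and 0.44 ± 0.84 for ppar with atf3. Of the 10 highest pairs, 9 held ppar and AP-1 group motifs only. Among all 105 pairs, 6 joined AP-1 group motifs and 4 joined ppar with one of them. These means lay within one another's spread over arrays, so their order is a description.

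The lowest pairs were foxd1 with myb at -4.0 ± 3.42, cebp with myb at -3.54 ± 3.14, cebp with ap2 at -3.06 ± 2.99, ap2 with myb at -2.95 ± 3.24 and cebp with foxd1 at -2.72 ± 2.82 (SD, n = 9 each). In foxd1 with myb, the 2-copy arrays read -2.30, -0.81 and -0.95 and the 4-copy arrays -1.97, -2.18 and -2.37. Its 6-copy arrays had 0, 0 and 2 RNA counts, so the mean of the pair rested on them. Without the 6-copy arrays the mean difference from the single element was -0.48, against -2.72 with them. The cebp with ap2 mean difference of -1.78 was -0.30 over arrays with 500 or more plasmid counts and -0.15 without 6-copy arrays. That of cebp with myb, -2.26, was -0.79 and -0.87 under the same limits. Both were then short of 2-fold, as was cebp with foxd1 by its median difference of -0.74, against a mean of -1.44. The ap2 with myb mean difference of -1.67 turned to 0.50 over the 5 arrays with 500 or more plasmid counts.

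Grouped by role, the AP-1 group pairs averaged 0.63 ± 1.40 (SD, n = 54 arrays), and 42 of the 54 were 2-fold or more above the single element. The pairs of ppar with an AP-1 group motif averaged 0.75 ± 0.96 (n = 36), with 32 of 36 higher. The pairs of ppar with another motif averaged 0.00 ± 0.81 (n = 90), with 60 higher. AP-1 group motifs with another motif averaged -0.48 ± 1.43 (n = 360), with 159 higher and 28 lower. Pairs with neither averaged -1.39 ± 1.73 (n = 405), with 78 higher and 61 lower.

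Against the 38.7% of all chromosome 9 arrays that were 2-fold or more higher, these shares were 77.8%, 88.9%, 66.7%, 44.2% and 19.3%. A mean of 36 of the 105 pairs lay 2-fold or more above the single element and that of 6 lay 2-fold or more below. A sum of 1 term per motif took up 83.7% of the variance of the 105 pair means.

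The array with the highest level was bach1 with fra1, 6 copies, arrangement 2, at 3.47 (interval 3.37 to 3.57), 26.9-fold above the single element. It had 60 barcodes and 913 plasmid counts, fewer plasmid counts than the other arrays of that pair. The next were cebp with myc, 2 copies, arrangement 2, at 3.24, and fos with myc, 6 copies, arrangement 1, at 2.83. The fos array of 6 copies in arrangement 1 stood at 2.73, bach1 with jun (6 copies, arrangement 3) at 2.68 and fra1 with myc (6 copies, arrangement 1) at 2.56.

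Below them were fra1 (6 copies, arrangement 2) at 2.50, jun (6 copies, arrangement 1) at 2.49, fos with bach1 (6 copies, arrangement 1) at 2.46 and atf3 with myb (6 copies, arrangement 1) at 2.44. So 9 of these 10 arrays had 6 copies and 8 held an AP-1 group motif. Of all 1079 arrays, 359 had 6 copies. Of the 945 mixed arrays, 54 held AP-1 group motifs only, 36 joined one with ppar and 360 joined one with another motif. Each motif of the group also had 9 single-motif arrays, of 134. The arrays without an AP-1 group motif stood apart from their own sets. The other 8 arrays of cebp with myc ran from -3.91 to 0.01, and the array at 3.24 had 817 plasmid counts, the fewest of its set. The other 8 of atf3 with myb ran from -5.31 to -0.55, and the array at 2.44 had 437 plasmid counts, the fewest of that set. The part of plasmid depth in these values was not tested.

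The lowest 5 levels belonged to arrays with no RNA count. Among such arrays the level and the bound are set by the plasmid count alone, so these 5 are the ones with the most plasmid counts and their order is not one of activity. These were fos with foxd1 (4 copies, arrangement 3), at least 103-fold below the single element, foxd1 with myb (6 copies, arrangement 2), at least 73.4-fold, and bach1 with myb (6 copies, arrangement 3), at least 64.6-fold. The others were cebp with ap2 (6 copies, arrangement 1), at least 62.5-fold, and cebp with myb (6 copies, arrangement 1), at least 58.8-fold. Each had between 444 and 779 plasmid counts.

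The excess of a mixed array is its level minus the mean level of the single-motif arrays of its motifs, with the same copy number and arrangement. Whether the copy number of a mixed array counts both motifs together or each of them, and whether the arrays keep the native 16-base site, is not given in the sources used here, and both bear on what the excess and the difference from the single element compare. It could be computed for 931 mixed arrays. The mean excess was 0.29 ± 1.56 (SD over arrays) and the median 0.22, and 558 arrays (59.9%) lay above 0. An excess of 2-fold or more was seen in 211 arrays (22.7%) and a deficit of 2-fold or more in 101 (10.8%). Over all 3 backgrounds the shares were 24.7% and 18.4%.

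The sign of the mean excess depended on what was expected of a mixed array. Against the mean of the single-motif ratios on the linear scale it was -0.27, and against the higher of the single-motif levels it was -0.79, with 252 arrays (27.1%) above. On average, mixed arrays thus lay between its motifs' own arrays. The excess also depended on depth: where the mixed and both single-motif arrays had 2000 or more plasmid counts, it was 0.051.

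By copy number the mean excess was 0.13, 0.19 and 0.56 with 2, 4 and 6 copies. The direction turned on the other expectations: it was 0.02, -0.38 and -0.44 on the linear one. Over the higher motif it was -0.34, -0.92 and -1.12. By role, and against the mean of the log2 levels, the mean excess was 0.10 ± 0.65 for AP-1 group pairs (SD, n = 54). It was 0.05 ± 0.58 for ppar with the AP-1 group (n = 36). It was 0.47 ± 1.21 for ppar with another motif (n = 89, above 0 in 64), 0.16 ± 1.49 for the AP-1 group with another motif (n = 356) and 0.41 ± 1.80 for pairs with neither (n = 396). By this expectation the highest levels were not those with the most excess: ppar with AP-1 group motifs stood close to the mean of the arrays of each. The order of the roles depended on the expectation. Taken in the same order, the mean excess was 0.04, -0.03, -0.21, -0.50 and -0.13 on the linear expectation. Over the higher motif it was -0.25, -0.35, -0.86, -1.07 and -0.63, so the AP-1 group and ppar with AP-1 group pairs were then the highest.

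Among pairs, 78 of 105 had a mean excess above 0, and 8 had one of 2-fold or more. Each of these 8 held myb, foxd1 or ap2, the motifs with single-motif arrays without RNA counts. Over arrays with 500 or more plasmid counts throughout, all of the 8 but lxr with myb were short of 2-fold. Without that limit the highest mean excess was that of lxr with myb, at 1.48 ± 1.81 (SD, above 0 in 7 of 9 arrays). Its own mean level was -0.78, between -0.68 for lxr alone and -3.84 for myb alone. None of its 9 arrays was 2-fold or more below the single element, and none had 0 RNA counts.

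Next was lxr with foxd1, at 1.40 ± 1.33 (above 0 in 8 of 9 arrays), with a mean level of -0.64. The 2-copy arrays of this pair read 0.30, 0.13 and -0.04, above all lxr and foxd1 arrays of 2 copies. The others were ap2 with foxd1 at 1.35 ± 3.39 (above 0 in 4 of 8 arrays), jun with foxd1 at 1.24 ± 1.65 (7 of 9) and foxo4 with myb at 1.15 ± 1.91 (7 of 9). All 5 held foxd1 or myb, whose single-motif arrays include those without RNA counts. With 500 or more plasmid counts throughout, lxr with myb had an excess of 1.32 (n = 5) and lxr with foxd1 of 0.99 (n = 7). Then ap2 with foxd1 had -0.26 (n = 6), jun with foxd1 0.61 (n = 7) and foxo4 with myb 0.72 (n = 5). With 2000 or more throughout, lxr with myb had 0.46, jun with foxd1 0.035, foxo4 with myb -0.025 and ap2 with foxd1 -0.70. That limit left myb pairs at most their 2-copy arrays, and foxd1 pairs at most those and the 4-copy array of arrangement 2.

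The pairs with the lowest mean excess were cebp with ap2 at -0.94 ± 1.48 (n = 8) and cebp with myb at -0.77 ± 2.50 (n = 9). The others were cebp with fra1 at -0.54, lxr with vbp at -0.51 and bach1 with vbp at -0.49. Over arrays with 500 or more plasmid counts throughout, cebp with ap2 had -0.20, and the sign turned for cebp with myb, at 0.08, and for lxr with vbp, at 0.36. So 3 of the 5 held cebp, whose mixed arrays had a mean excess of -0.05 ± 1.57 (n = 125) but a median of 0.16, with 74 of 125 above 0. No pair had a mean deficit of 2-fold or more.

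Of the pairs, 3 had an excess above 0 in every array, and all held e4bp4. They were singled out after their values were seen. The same 9 e4bp4 arrays enter the expectation of all 3 pairs, so these are not separate observations. The excess lay above 0 in 59.9% of all mixed arrays and in 88 of the 125 that held e4bp4. In ppar with e4bp4 it was 0.47 ± 0.24 (range 0.20 to 0.85), in lxr with e4bp4 0.76 ± 0.51 (0.17 to 1.56) and in cebp with e4bp4 0.71 ± 0.61 (0.097 to 2.06), with n = 9 each. The arrays of ppar with e4bp4 read 0.12, -0.04 and -0.25 with 2 copies, 0.59, 0.44 and 0.31 with 4 copies, and 1.03, 0.81 and 0.86 with 6 copies. All 9 were 2-fold or more above the single element. The level of lxr with e4bp4 was -0.06 on average, above -0.68 for lxr alone and -0.96 for e4bp4 alone. No array of these 3 pairs had fewer than 500 plasmid counts.

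Set beside the other backgrounds, the chromosome 9 arrays kept much of the order of motif contents. Over the 120 contents, mean levels in chromosome 9 had r = 0.801 (rho = 0.839) with chromosome 13 and r = 0.748 (rho = 0.800) with chromosome 15, as a description of points from the same 2 libraries. The same array stood higher in chromosome 9 than in chromosome 13 in 607 of 1078 cases, with a median difference in level of 0.15. Against chromosome 15 it was higher in 690 of 1057, with a median of 0.71. Where both arrays had 2000 or more plasmid counts, the medians were 0.15 (n = 861) and 0.16 (n = 260). The chromosome 15 arrays had a median of 1012.5 plasmid counts and 117 of them had no RNA count.

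Relative to its own single element, the median array stood 0.69 higher in chromosome 9, 0.24 in chromosome 13 and 1.28 in chromosome 15. The largest difference was in the background with the lowest single element, which raises the difference by being subtracted. The median levels themselves were -0.59, -0.73 and -1.31. Arrays 2-fold or more above their own single element made up 38.7%, 25.1% and 54.3%. The mean excess of mixed arrays was 0.29, -0.03 and 0.07, and the median 0.22, 0.05 and 0.32, so chromosome 9 was highest by mean and chromosome 15 by median. The pair of bach1 with fra1, the fifth by mean in chromosome 9, was the first in both other backgrounds, while ppar with jun, first in chromosome 9, was the fourth in chromosome 13 and the sixth in chromosome 15. Differences between backgrounds were not tested, since each background is 1 set of elements in 1 pair of libraries.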

How the data were processed

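The authors deposited, per the file headers, whole-number counts of RNA and plasmid reads for each element, summed over its barcodes, and the number of barcodes, which equalled the deposited barcode map for 3243 of 3243 elements. The submitters' processing notes name mm9 and, for the barcode library, Bowtie2 2.1.0; the counting tool is not given in the sources used here. Members, motif groups and lists were chosen with earlier results of these data known.

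Levels were log2 of RNA over plasmid counts, with a pseudocount of 1 and scaling to library totals (9806531 and 10179019 counts), for arrays with 50 or more plasmid counts, in Python 3.11.15 with numpy 2.4.6, pandas 2.3.3 and scipy 1.17.1. A change was called at 2-fold. Each group was 1 library with no replicate, so no p-value is given. Intervals are exact Clopper-Pearson 95% intervals. Reads carry no molecular identifiers, so intervals and floors cover counting error only. An array with 0 RNA counts was bounded at 3 counts per array, and each at-least fold holds at that limit. The exact 95% interval reached higher, for example to -5.90 against -6.21 for ap2 with 6 copies in arrangement 1. Scripts were tested on simulated data.

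Named items were every motif, copy number and arrangement, the 10 highest and 5 lowest pairs and arrays by level, and the 5 highest and 5 lowest pairs by excess, beside items said to be singled out later. The alternatives were other pseudocounts, count minimums, barcode minimums, thresholds, references and expectations, medians for means, and copy numbers or arrangements left out. Alternatives for arrays with 0 RNA counts, and a minimum of 2000 plasmid counts, were added after seeing the data.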

Additional observations from a re-analysis of the deposited data

How the results depend on the processing

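The alternatives left 205 of 243 values that answer a comparison, and 572 of 660 values of single motifs or pairs, within their spread or on their side of the 2-fold line, and turned 18 of the latter. The cause was not tested. Of the arrays, 19.7% were higher and 19.4% lower by 2-fold or more against the median array in place of the single element, 13.8% and 4.91% by 4-fold, and 5.60% were lower at 2000 or more plasmid counts. The median difference was 1.00 without 2-copy and 0.52 without 6-copy arrays, and the mean was 0.53. Pairs 2-fold or more higher numbered 20 without 6-copy arrays. Pairs 2-fold or more lower numbered 2 at 500 or more plasmid counts, 3 without 6-copy arrays, 3 without arrays of 0 RNA counts, 1 at 2000 or more plasmid counts and 1 by medians. The mean excess was 0.152 at 500 or more plasmid counts, 0.160 without 6-copy arrays, 0.132 without arrays of 0 RNA counts, 0.051 at 2000 or more plasmid counts, -0.27 on the linear expectation and -0.79 over the higher motif. Excess and deficit of 2-fold or more made up 11.0% and 17.7% on the linear expectation and 4.62% and 36.9% over the higher motif, those of 1.5-fold or more 34.0% and 19.9%, and excess was 11.7% at 2000 or more plasmid counts. The step from 2 to 4 copies had a median of 0.68. The step from 4 to 6 copies was 0.55 at 500 or more and 0.61 at 2000 or more plasmid counts, 0.52 by medians, 0.52 without arrays of 0 RNA counts and 0.0013 in single-motif arrays. The mean difference was 0.10 in chromosome 13 and 0.46 in chromosome 15, whose median was 1.62 at 500 or more plasmid counts, 1.58 without arrays of 0 RNA counts and 2.21 at 2000 or more plasmid counts. The ap2 difference of -1.61 became 0.16 at either count minimum, without 6-copy arrays or without arrays of 0 RNA counts, and 0.0027 by medians. The ap2 with myb difference became 0.50 at 500 or more plasmid counts, 0.39 at 2000 or more and 0.025 by medians. The ap2 with foxd1 excess became -0.26 at 500 or more plasmid counts, without 6-copy arrays or without arrays of 0 RNA counts, -0.015 without arrangement 1 and -0.70 at 2000 or more plasmid counts. The excess over the higher motif was -0.33 for foxo4 with myb, -0.31 for lxr with myb and -0.75 for jun with foxd1, which had -0.063 on the linear expectation, and foxo4 with myb had -0.025 at 2000 or more plasmid counts. No pair of arrays shared all counts, so counting such arrays once changed nothing. No paired analysis was possible because each group was 1 library.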

Other observations

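Some contents outside the lists above stood out for copy number rather than for level. In mixed arrays with lxr, the mean was -0.71 with 2 copies, 0.05 with 4 and -0.50 with 6. The 4-copy mean was thus the highest, as it was among lxr arrays alone. Mixed foxd1 arrays had their lowest mean with 4 copies, at -2.02, against -1.21 with 2 and -1.26 with 6 copies. Mixed myc arrays went from -1.41 with 2 copies to 0.03 with 6 copies, and 6-copy arrays of myc with fos and of myc with fra1 were among the 10 highest arrays.

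Set array by array against the higher of its motifs' own arrays with the same copy number and arrangement, 9 of the 105 pairs had a mean difference above 0, of 0.31 or less. This matched difference is not one between the means over arrays given above. The 9 were bach1 with jun, lxr with e4bp4, with atf3, with foxo4 and with foxd1, e4bp4 with vbp, with cebp and with foxo4, and ap2 with foxd1. Of these 9, 4 held lxr and 4 held e4bp4, and 1 held only AP-1 group motifs. In 6 of 9 arrays each, bach1 with jun, lxr with foxo4, lxr with foxd1 and foxo4 with e4bp4 stood above the higher of their motifs' own arrays. These pairs were described after their values were seen.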
